A study of Mus musculus with 24 samples.

Results

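Nuclear genes of oxidative phosphorylation (OXPHOS) outside complex IV were followed in C2C12 cells, an established mouse myoblast line, cultured in 2 media at 2 oxygen levels. The genes were taken by symbol: those starting Ndufa, Ndufb, Ndufc, Ndufs or Ndufv with a number, Sdha to Sdhd, and those starting Uqcr or Atp5, with pseudogene symbols left out. This gave 66 of the 24043 genes in the expression table: 37 listed under complex I, 4 under complex II, 8 under complex III and 17 under complex V. Growth medium (GM) was DMEM with 10% fetal bovine serum, penicillin and streptomycin, in which cells were kept below confluence. Differentiation medium (DM) was DMEM with 2% horse serum and ITS, an insulin, transferrin and selenium supplement, changed over several days. Each medium was used at 21% oxygen (normoxia) or 2% oxygen (hypoxia), and each of the 4 groups had 2 RNA libraries, A and B, which the series describes as biological replicates. All 8 libraries came from this 1 line, no genetic change or drug separated the groups, and bulk RNA was measured, so that fewer cells of a type and less RNA per cell cannot be told apart.

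OXPHOS couples electron transport in the inner mitochondrial membrane to ATP synthesis. Complexes I and II pass electrons from NADH and succinate to ubiquinone, complex III passes them on to cytochrome c, and complex V (ATP synthase) uses the resulting proton gradient to make ATP. Most subunits are encoded in the nucleus and imported. Muscle cells are known to build up mitochondria as they differentiate, and hypoxia is known to lower mitochondrial oxygen use through the HIF transcription factors.

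The symbol rule and the complexes do not match exactly. Ndufa4 carries a complex I name but is known as a subunit of complex IV, and Ndufa4l2 is its HIF-inducible paralog. Atp5s and Atp5sl are now named Dmac2l and Dmac2, which are not counted among the subunits of ATP synthase. The rule also misses Ndufab1 of complex I, Cyc1 of complex III and Atpif1, the ATP synthase inhibitor, which are given separately. All 66 genes passed the filter on low values (a group mean of at least 1 FPKM, the length- and depth-scaled fragment level, in 1 or more groups), and none was listed at 0 in any library.

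Depth was not given as counts. The sizes of the smallest steps in the table put the libraries between 0.633 and 1 of the deepest, and summed FPKM ran from 480000 to 534200. Myotube markers (7 genes, among them Myog, Ckm, Acta1 and Tnnt3) summed to 7655 and 7674 FPKM in normoxic DM but only to 17.4 and 9.72 in hypoxic DM, with Mef2c at 0 in library B of hypoxic DM, so the label DM at 2% oxygen does not stand for myotubes. Library B of hypoxic DM also stood apart in proliferation markers (6 genes, 213.9 FPKM against 36.6 in library A), and 613 of 12389 tested genes differed over 2-fold between these replicates. Of the 66 OXPHOS genes 2 did so, Ndufs5 and Ndufa4l2. The median signed difference of the 66 genes (A minus B) was 0.03 on the log2 scale, against -0.09 for all tested genes. Differences of opposite sign cancel in it, and the median absolute difference was 0.12, against 0.20 for all tested genes. Adipocyte, endothelial and chondrocyte markers summed to at most 0.514 FPKM in any library, whereas 1 osteoblast marker, Bglap, reached 93.1 and 75.5 FPKM in normoxic DM and 1 macrophage marker, Cd68, reached 25.8 and 42.8 FPKM in hypoxic DM. The other markers of these lists stayed low there: Sp7 had 0.121 and 0.073 FPKM and Ibsp 0.036 and 0.058 in normoxic DM, and Ptprc had 0 and 0.014 in hypoxic DM. The part of these marker shifts in the OXPHOS results was not tested.

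OXPHOS transcripts were most abundant in normoxic DM and least abundant in hypoxic GM. The 66 genes made up 2.44% and 2.41% of all FPKM in the normoxic GM libraries, 1.37% and 1.38% in hypoxic GM, 3.33% and 3.55% in normoxic DM, and 2.04% and 2.09% in hypoxic DM. The 4 groups did not overlap in this share, which was lower at 2% oxygen in each medium and higher in DM at each oxygen level. The median gene stood at 137 and 116 FPKM in normoxic GM, 66.8 and 66.2 in hypoxic GM, 164 and 185 in normoxic DM, and 108 and 114 in hypoxic DM. Group means followed the order normoxic DM, normoxic GM, hypoxic DM, hypoxic GM in 35 of 66 genes, against 7.78% of all tested genes. Hypoxic GM was the lowest group for 53 genes (25.8% of all tested genes) and normoxic DM the highest for 55 (28.8%). Of the 2 middle groups, hypoxic DM lay below normoxic GM for 47 genes, where 52.3% of all tested genes did so, and the median ratio of the means was 0.857. The next most frequent order, with hypoxic DM above normoxic GM, held for 14 genes.

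**Figure D1:**
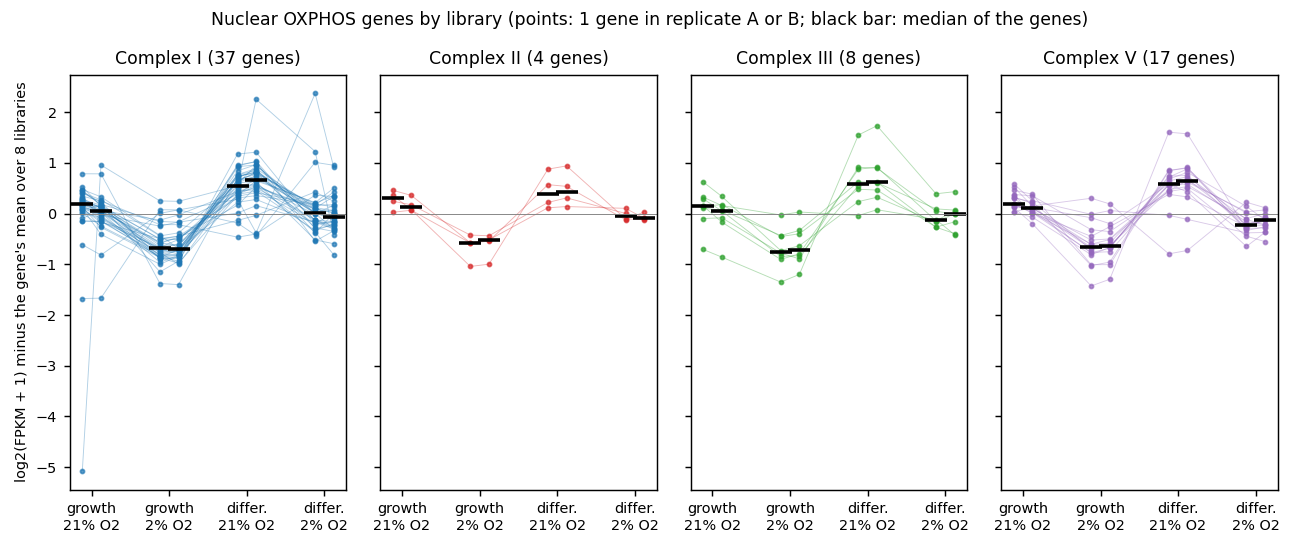
Level of each OXPHOS gene in each library by complex, as log2(FPKM + 1) minus the gene's mean over the 8 libraries (vertical axis), with a thin line joining the values of 1 gene and a black bar at the median of the genes. In each of the 4 panels the bars are lowest in GM at 2% oxygen and highest in DM at 21% oxygen; the single point near -5 is Ndufs5.

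Hypoxia in growth medium lowered OXPHOS transcripts across all 4 complexes. With limma and Benjamini-Hochberg adjustment over the 12389 tested genes, 58 of 66 were lower and 2 higher at an adjusted p under 0.05, where 28.0% of all tested genes were called lower and 13.5% higher. The median difference of the 66 genes was -0.76 on the log2(FPKM + 1) scale, against -0.14 for all tested genes, and the median ratio of group means was 0.586. By complex, 32 of 37 genes of complex I, 4 of 4 of complex II, 7 of 8 of complex III and 15 of 17 of complex V were lower, with medians of -0.77, -0.80, -0.67 and -0.72. In 62 genes both hypoxic libraries lay below both normoxic ones (50.0% of all tested genes). The genes with no call were Ndufa6, Ndufb11, Ndufs5, Uqcrh, Atp5s and Atp5sl, and the 2 that were higher were Ndufv3 and Ndufa4l2. The myoblast markers (Myod1, Myf5, Des, Pax7 and Cdh15) moved the same way, with 5 of 5 lower and a median of -1.72. Their summed level was 492 and 414 FPKM in normoxic GM, 123 and 130.1 in hypoxic GM, 794 and 780.4 in normoxic DM, and 66.6 and 94.8 in hypoxic DM, and its part in the OXPHOS results was not tested.

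Hypoxia in differentiation medium also lowered most OXPHOS transcripts. In this comparison 52 of 66 genes were lower and 5 higher by limma, where 27.7% of all tested genes were lower and 37.5% higher. The median difference was -0.73 against 0.15 for all tested genes, and the median ratio of means was 0.601. Of complex I, 27 of 37 genes were lower, of complex II 3 of 4, of complex III 7 of 8 and of complex V 15 of 17. The 5 higher genes were Ndufv3, Ndufa4l2, Ndufa8, Ndufb10 and Atp5sl. In 59 genes both hypoxic libraries were below both normoxic ones (35.1% of all tested genes). In total 49 of 66 genes were lower with hypoxia in both media, a pattern held by 11.9% of all tested genes. Without library B of hypoxic DM 51 genes were lower, and without library A 50. Which medium had more lower genes depended on scaling: 55 in GM and 59 in DM with median-of-ratios scaling, and 52 and 53 with upper-quartile scaling. The myoblast markers were again 5 of 5 lower with hypoxia, with a median of -2.71.

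Differentiation medium raised OXPHOS transcripts at both oxygen levels. At 21% oxygen 48 of 66 genes were higher and 5 lower by limma, where 25.5% of all tested genes were higher and 41.0% lower, with a median of 0.47 against -0.20 for all tested genes. At 2% oxygen 54 were higher and 2 lower, where 23.3% and 17.6% of all tested genes were, with a median of 0.62 against 0.07. The median ratios of means were 1.39 and 1.55. Both DM libraries lay above both GM libraries in 51 genes at 21% oxygen (34.1% of all tested genes) and in 54 at 2% oxygen (40.0%). In complex I 27 of 37 genes were higher at 21% oxygen and 32 at 2%, in complex II 2 and 4 of 4, in complex III 6 and 6 of 8, and in complex V 13 and 12 of 17. The genes called higher at both oxygen levels numbered 44 (8.89% of all tested genes), and 39 of these were also lower with hypoxia in both media (3.27%). Of the myotube markers, 7 of 7 were higher in DM at 21% oxygen, with a median of 7.61, and 4 of 7 at 2% oxygen, with a median of 0.69.

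**Figure D2:**
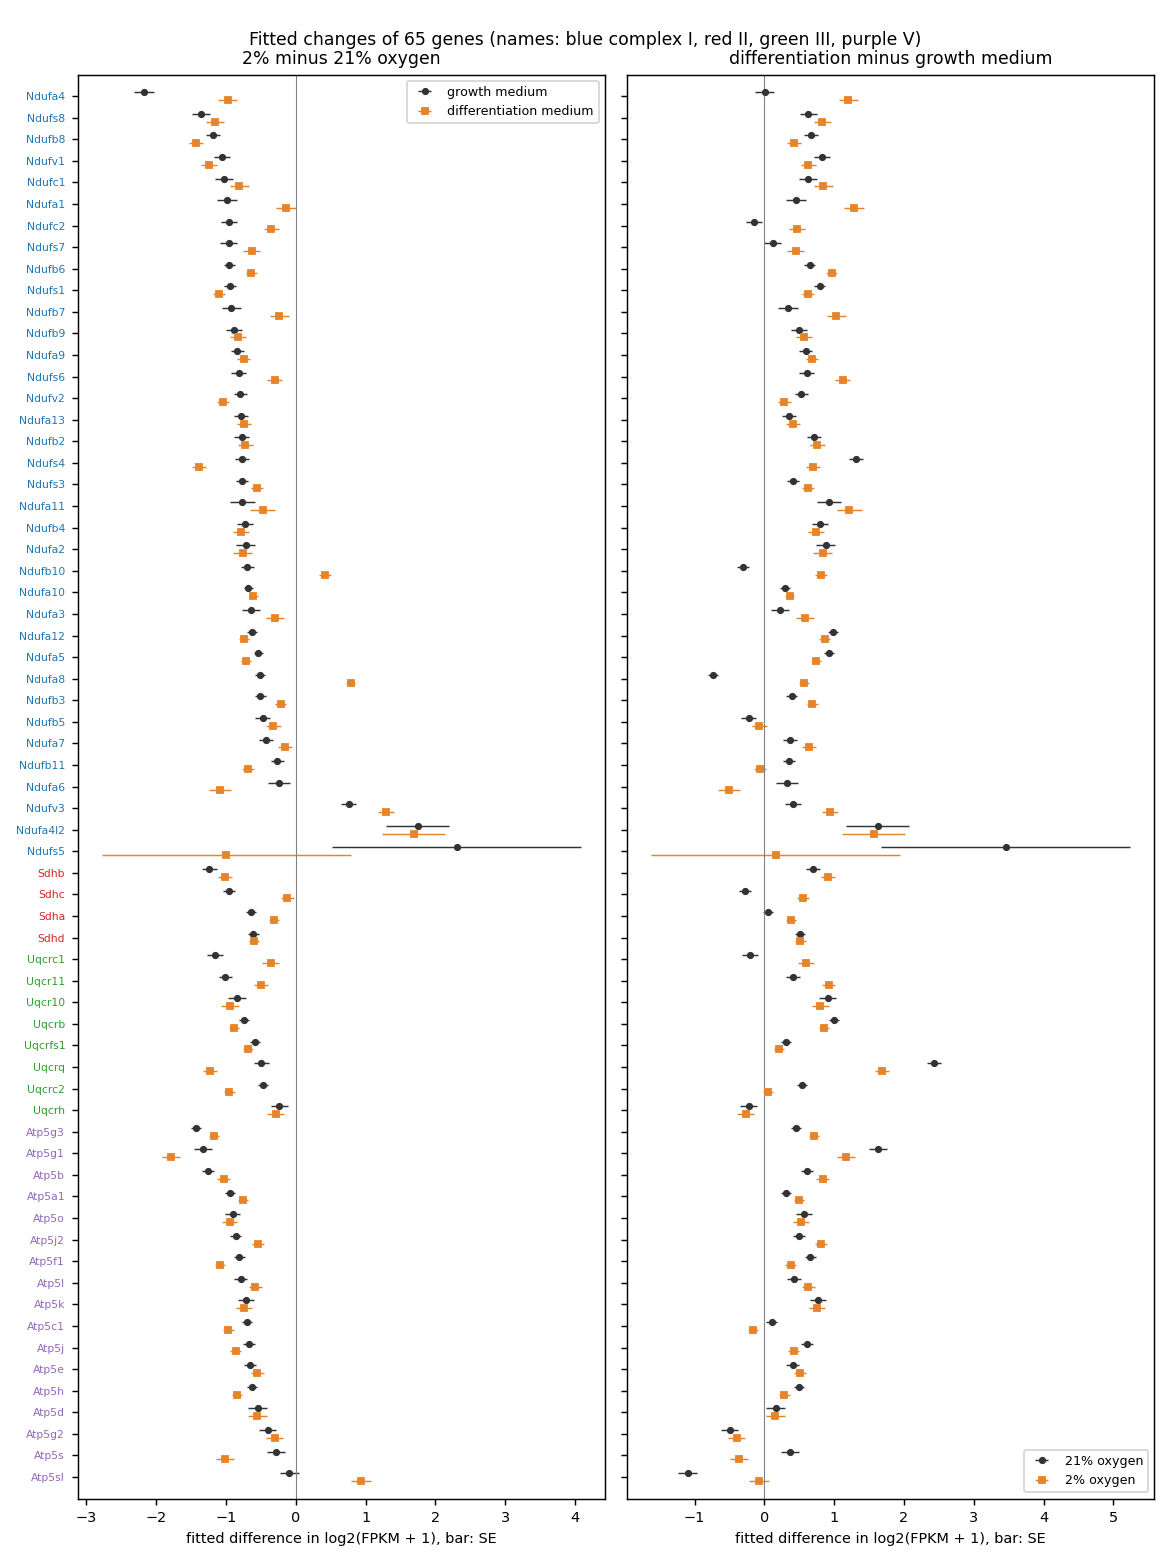
Fitted difference of 65 OXPHOS genes in log2(FPKM + 1) with its standard error (horizontal axis), for hypoxia in each medium (left) and for DM at each oxygen level (right), with genes grouped by complex and sorted by their change with hypoxia in GM. Most points lie left of 0 in the left panel and right of 0 in the right panel, and Ndufs5 and Ndufa4l2 have the widest errors.

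Both other scalings divide each library by a single factor and so shift all genes almost together. The distance of the OXPHOS genes from the rest therefore had to stay nearly the same, and the values below are no test of it. The median of the 66 genes minus that of all tested genes was -0.62 for hypoxia in GM, -0.88 for hypoxia in DM, 0.67 for DM at 21% oxygen and 0.56 for DM at 2% oxygen. With median-of-ratios scaling these values were -0.61, -0.91, 0.72 and 0.55, and with upper-quartile scaling -0.59, -0.89, 0.69 and 0.53. Among all genes called, the share called higher moved with scaling: from 32.6% to 43.4% and 49.3% for hypoxia in GM, from 57.5% to 46.5% and 54.8% for hypoxia in DM, and from 38.4% to 53.6% and 45.6% for DM at 21% oxygen.

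Of the catalytic core of complex I, the 6 subunits described here followed the common pattern closely, which is not a statement about the whole core. The 6 core subunits described here (Ndufs1, Ndufs3, Ndufs7, Ndufs8, Ndufv1 and Ndufv2), from the arm that holds the flavin and the iron-sulfur clusters, were all lower with hypoxia in both media, with medians of -0.95 in GM and -1.07 in DM. In DM 5 of 6 were higher at 21% oxygen and 6 of 6 at 2% oxygen. Ndufs1, the largest core subunit, stood at 31.6 and 33.2 FPKM in normoxic GM, 16.3 and 16.6 in hypoxic GM, 54.4 and 59.3 in normoxic DM, and 27.2 and 24.6 in hypoxic DM. Its 4 groups did not overlap, and hypoxia lowered it by -0.94 ± 0.09 (SE) in GM (limma, adjusted p = 0.000364) and by -1.10 ± 0.09 in DM (limma, adjusted p = 4.92e-05). Ndufs8, which carries iron-sulfur clusters near the ubiquinone site, had 113 and 91.7 FPKM in normoxic GM, 36.3 and 42.2 in hypoxic GM, 156 and 159.7 in normoxic DM, and 74.4 and 66.3 in hypoxic DM. It had the third largest fall with hypoxia in GM among the 66 genes, -1.36 ± 0.12 (SE; limma, adjusted p = 0.000395).

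The accessory subunits of complex I, which surround this core, were less uniform than the 6 core subunits described above. Of the 28 accessory genes, 24 were lower and 1 higher with hypoxia in GM, and 19 were lower and 3 higher with hypoxia in DM. Ndufb8, a membrane-arm subunit, stood at 179.9 and 158 FPKM in normoxic GM, 72.8 and 74.1 in hypoxic GM, 264 and 275 in normoxic DM, and 92.3 and 107 in hypoxic DM. Both hypoxic groups were below both normoxic groups, with differences of -1.19 in GM and -1.43 in DM (limma, adjusted p = 0.000277 and 3.2e-05). Ndufs4, an accessory subunit of the matrix arm needed for a stable complex, rose from 28.3 and 23.6 to 64.9 and 66.6 FPKM with DM at 21% oxygen (1.31 ± 0.10 SE, limma adjusted p = 5.11e-05). In hypoxic GM it had 15.3 and 14.2 FPKM and in hypoxic DM 24.1 and 25.1, which overlaps the range of normoxic GM.

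Ndufv3, an accessory subunit beside the NADH-binding module, went the other way with oxygen. It had 188 and 163 FPKM in normoxic GM, 289 and 303 in hypoxic GM, 253 and 212 in normoxic DM, and 580.4 and 558 in hypoxic DM. In both media the hypoxic libraries were above the normoxic ones, by 0.76 ± 0.11 in GM and 1.29 ± 0.11 in DM (SE; limma, adjusted p = 0.00257 and 8.95e-05). Its ratio to Ndufv1, the core NADH-binding subunit, was 2.72 and 2.91 in normoxic GM, 10.4 and 9.79 in hypoxic GM, 2.36 and 1.86 in normoxic DM, and 12.9 and 11.9 in hypoxic DM. The 250 bases before its start are shown because it rose with hypoxia while most of the other genes fell. They come from the RefSeq promoter table (GRCm38.p6, chr17:31519865-31520114, + strand), with the HIF core motif GCGTG, searched on both strands, in capitals.
Ndufv3: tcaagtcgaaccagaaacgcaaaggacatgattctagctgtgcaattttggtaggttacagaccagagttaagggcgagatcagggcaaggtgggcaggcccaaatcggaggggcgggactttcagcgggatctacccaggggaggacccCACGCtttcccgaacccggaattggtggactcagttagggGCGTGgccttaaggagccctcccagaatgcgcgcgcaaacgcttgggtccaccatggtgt
GCGTG was found in 40.3% of 62 promoter windows of the OXPHOS genes and in 28.2% of all 32851 windows of the same length, and the other HIF core, ACGTG, in 25.8% and 16.6%. Genes that were lower with hypoxia, Atp5g1 among them, hold HIF core letters too, so a match is a description only.

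Ndufa8 and Ndufb10, intermembrane-space-facing accessory subunits of complex I, changed with hypoxia in opposite directions in the 2 media. Ndufa8 had 145 and 136 FPKM in normoxic GM, 98.1 and 98.0 in hypoxic GM, 82.5 and 86.1 in normoxic DM, and 147 and 144 in hypoxic DM. It fell by 0.52 with hypoxia in GM and rose by 0.78 ± 0.07 (SE) with hypoxia in DM, and the interaction of medium and oxygen was 1.30 ± 0.10 (SE; limma, adjusted p = 9.78e-05). Normoxic DM was its lowest group and no library of that group overlapped another group. Ndufb10 had 118 and 109.5 FPKM in normoxic GM, 68.5 and 71.4 in hypoxic GM, 88.8 and 95.3 in normoxic DM, and 132 and 116 in hypoxic DM. Its interaction was 1.11 ± 0.13 (SE; limma, adjusted p = 0.000575), although its fall with DM at 21% oxygen of -0.31 was lost with median-of-ratios scaling (-0.03, limma adjusted p = 0.846). Its rise of 0.42 with hypoxia in DM was also lost with that scaling (0.21, limma adjusted p = 0.173).

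Several other accessory genes also departed from the common pattern, Ndufa6, Ndufa1 and Ndufs5 among them. Ndufa6, an LYR-motif subunit near the ubiquinone channel, had 308 and 266 FPKM in normoxic GM, 233 and 250.4 in hypoxic GM, 345 and 375 in normoxic DM, and 198 and 145 in hypoxic DM. Hypoxic DM was its lowest group, and it fell by 1.08 ± 0.16 (SE) with hypoxia in DM (limma, adjusted p = 0.000933). Its fall of -0.51 with DM at 2% oxygen (limma, adjusted p = 0.0392) was lost under several alternatives, without library B of hypoxic DM among them (-0.29, limma adjusted p = 0.0884). Ndufa1, a membrane-arm subunit, had 102 and 86.8 FPKM in normoxic GM, 48.8 and 45.5 in hypoxic GM, 117 and 142 in normoxic DM, and 105 and 129 in hypoxic DM. It rose by 1.29 ± 0.14 (SE) with DM at 2% oxygen (limma, adjusted p = 0.0012), whereas the libraries of the 2 oxygen levels overlapped in DM. Ndufs5, named after its values were seen, had 0.249 and 80.7 FPKM in normoxic GM, 49.0 and 48.7 in hypoxic GM, 60.5 and 199.9 in normoxic DM, and 97.3 and 30.6 in hypoxic DM. Its replicates differed over 2-fold in 3 of the 4 groups and it passed no test. The following were also named after their values were seen. Ndufb11 did not pass with hypoxia in GM (-0.26, limma adjusted p = 0.0526) or with DM at 2% oxygen (-0.06), and its interaction was -0.42 (limma, adjusted p = 0.0286). With hypoxia in DM, Ndufa3 (-0.29), Ndufa7 (-0.16), Ndufa11 (-0.48) and Ndufb7 (-0.24) did not pass, with limma adjusted p from 0.0517 to 0.206, although each was lower with hypoxia in GM. Ndufb5 and Ndufc2 had their highest mean in normoxic GM and did not pass with DM at 21% oxygen (-0.23 and -0.15).

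Ndufa4 and Ndufa4l2, the pair that belongs with complex IV, moved in opposite directions with hypoxia. Ndufa4 had 534 and 534 FPKM in normoxic GM, 118 and 117 in hypoxic GM, 502 and 572 in normoxic DM, and 237 and 311 in hypoxic DM. Both hypoxic groups lay below both normoxic groups, which overlapped each other. The difference with hypoxia was -2.17 ± 0.14 in GM, the largest fall among the 66 genes, and -0.98 ± 0.14 in DM (SE; limma, adjusted p = 0.000109 and 0.000797). With DM it stayed within the replicate spread at 21% oxygen (0.01, limma adjusted p = 0.982) and rose by 1.20 at 2% oxygen (limma, adjusted p = 0.00125).

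Ndufa4l2 was the least abundant gene of the set in normoxic GM, at 0.246 and 0.253 FPKM, with 3.20 and 3.19 in hypoxic GM, 3.84 and 2.06 in normoxic DM, and 19.6 and 6.48 in hypoxic DM. These values corresponded to 3 and 4, 50 and 47, 46 and 31, and 344 and 72 fragments, whole to within 0.1 of a fragment. Normoxic GM was lowest and hypoxic DM highest with no overlap, while hypoxic GM lay within the range of normoxic DM. The ratio of summed depth-adjusted fragments was 12.8 for hypoxic over normoxic GM (95% counting interval 5.96 to 32.6), 11.4 for normoxic DM over normoxic GM (5.27 to 29.3) and 5.09 for hypoxic over normoxic DM (3.98 to 6.58). These intervals cover counting error only, not the spread between libraries. The fitted rises of 1.75 and 1.69 with hypoxia in GM and DM (limma, adjusted p = 0.0208 and 0.0145), which the added 1 FPKM makes smaller for a gene this low, were lost when single libraries were left out: each of the 4 GM libraries for the first (limma, adjusted p from 0.0813 to 0.0931) and library B of normoxic DM for the second (1.36, limma adjusted p = 0.101). Its rises of 1.62 and 1.57 with DM at 21% and 2% oxygen (limma, adjusted p = 0.0168 and 0.0321) were also lost without single libraries, with adjusted p up to 0.109 and 0.126 by limma. Library A of hypoxic DM moved both values of that group: without it the rise with hypoxia in DM was 0.96 (limma, adjusted p = 0.0157) and that with DM at 2% oxygen 0.84 (limma, adjusted p = 0.0355), and without library B they were 2.42 and 2.30. Ndufa4l2 overlaps Shmt2, a mitochondrial serine enzyme, in the RefSeq annotation. Shmt2 had 27.4 and 23.7, 36.2 and 36.8, 271 and 271, and 46.2 and 44.1 FPKM in the same order of groups. Shmt2 was highest in normoxic DM and Ndufa4l2 in hypoxic DM, but both were higher in normoxic DM than in normoxic GM. Whether reads were counted by strand is not given in the sources used here. The part of reads shared with Shmt2 in the values of Ndufa4l2 was not tested.

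**Figure D3:**
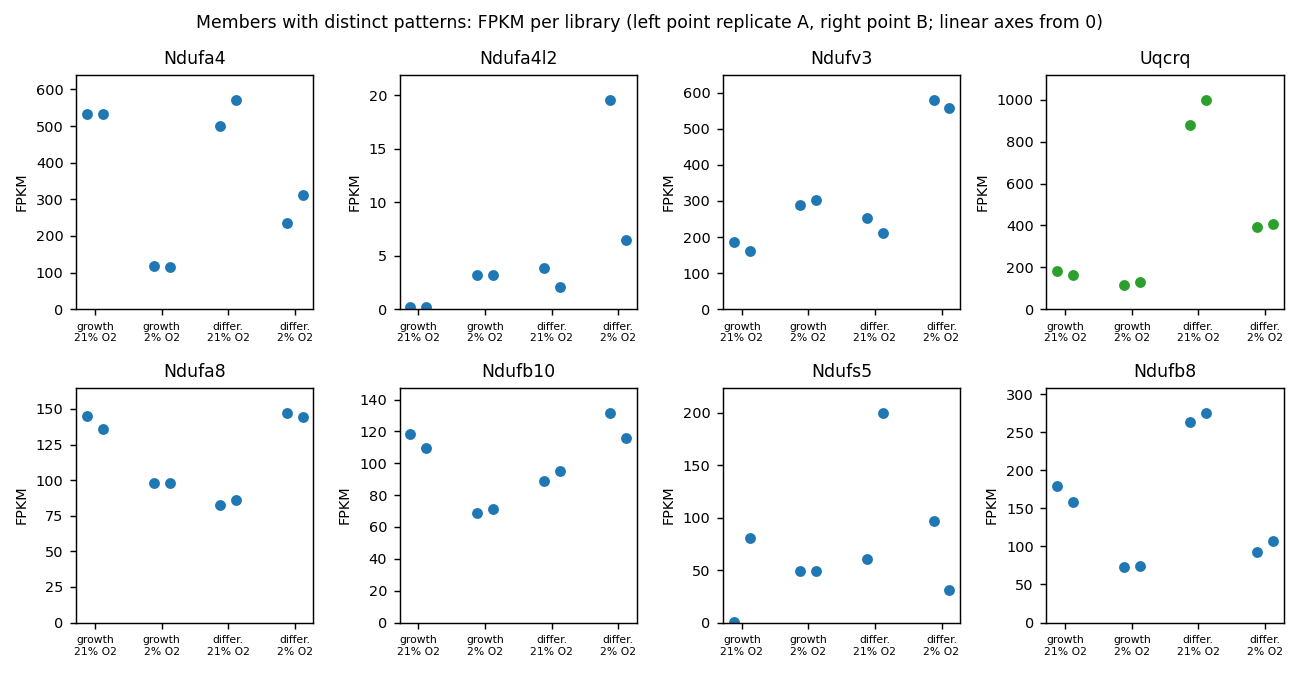
FPKM in each library (vertical axes from 0) of 8 genes, with replicate A to the left of B in each group. Ndufv3 and Ndufa4l2 are higher at 2% oxygen in both media, Ndufa4 and Ndufb8 are lower, Uqcrq is highest in DM at 21% oxygen, and the replicates of Ndufs5 lie apart.

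Complex II, which is also succinate dehydrogenase of the tricarboxylic acid cycle, was lower with hypoxia throughout GM. Sdha, the flavin-bearing subunit, had 73.3 and 69.7 FPKM in normoxic GM, 45.8 and 45.3 in hypoxic GM, 72.0 and 76.8 in normoxic DM, and 61.9 and 57.5 in hypoxic DM. It fell by 0.64 with hypoxia in GM (limma, adjusted p = 0.000956) and by 0.31 in DM (limma, adjusted p = 0.00908), and the 2 normoxic groups overlapped. The fall in DM was lost without library B of normoxic DM (-0.27, limma adjusted p = 0.0619), and its rise of 0.38 with DM at 2% oxygen was lost with upper-quartile scaling (0.29, limma adjusted p = 0.0627) and without either hypoxic GM library (limma, adjusted p = 0.053 and 0.0593). Sdhb, the iron-sulfur subunit, had 94.7 and 77.6 FPKM in normoxic GM, 35.2 and 36.4 in hypoxic GM, 136 and 142 in normoxic DM, and 68.3 and 67.8 in hypoxic DM. All 4 groups were apart, and hypoxia lowered it by -1.24 ± 0.10 in GM and -1.02 ± 0.10 in DM (SE; limma, adjusted p = 0.000266 and 0.000163). The anchor subunit Sdhc, named after its values were seen, was 1 of the 5 genes that fell with DM at 21% oxygen (-0.28, limma adjusted p = 0.0264). This call was lost with both median-of-ratios and upper-quartile scaling, where no gene of complex II was lower.

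In complex III, Uqcrq rose most with differentiation medium. Uqcrq, a small subunit next to cytochrome b, had 183 and 165 FPKM in normoxic GM, 117 and 130.1 in hypoxic GM, 880.4 and 1000.3 in normoxic DM, and 394 and 405 in hypoxic DM. Its 4 groups did not overlap, and in DM it rose by 2.42 ± 0.10 at 21% oxygen and 1.69 ± 0.10 at 2% oxygen (SE; limma, adjusted p = 4.13e-06 and 0.000227), the largest called rise of the set in each on the log2(FPKM + 1) scale. As ratios of mean FPKM, the rises of Uqcrq were 5.40 and 3.23, below those of the much less abundant Ndufa4l2 (11.8 and 4.08). Relative to Uqcrc1, a core-protein subunit of the same complex, Uqcrq stood at 1.52 and 1.67 in normoxic GM, 2.51 and 2.60 in hypoxic GM, 9.56 and 10.2 in normoxic DM, and 5.68 and 5.19 in hypoxic DM. Uqcrq overlaps Gdf9 in the RefSeq annotation. Gdf9 had 0.504 and 0.449 FPKM in normoxic GM, 0.847 and 0.545 in hypoxic GM, 1.82 and 1.86 in normoxic DM, and 0.377 and 0.979 in hypoxic DM. The part of reads shared with Gdf9 in the values of Uqcrq was not tested.

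Uqcrc1 itself had 121 and 99.0 FPKM in normoxic GM, 46.6 and 50.0 in hypoxic GM, 92.1 and 97.8 in normoxic DM, and 69.3 and 78.1 in hypoxic DM. It fell with hypoxia by 1.16 in GM (limma, adjusted p = 0.000513) and by 0.36 in DM (limma, adjusted p = 0.0289), and normoxic GM was its highest group. The fall in DM was lost in 6 alternatives, with adjusted p between 0.0503 and 0.14 by limma, among them the fits without either normoxic DM library (-0.41 and -0.32) and without library A of hypoxic DM (-0.28). Uqcrfs1, the Rieske iron-sulfur protein, had 75.2 and 76.8 FPKM in normoxic GM, 49.3 and 51.2 in hypoxic GM, 95.0 and 94.0 in normoxic DM, and 56.2 and 60.5 in hypoxic DM. The 4 groups were apart, and hypoxia lowered it by -0.59 ± 0.07 in GM and -0.69 ± 0.07 in DM (SE; limma, adjusted p = 0.00101 and 0.000173). Its rise of 0.21 with DM at 2% oxygen was close to the threshold (limma, adjusted p = 0.0496) and was lost under most alternatives. Uqcrh, the hinge protein, passed no test.

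In complex V the subunits of the catalytic head and of the peripheral stalk were lower together with hypoxia. All 5 genes of the F1 head (Atp5a1, Atp5b, Atp5c1, Atp5d and Atp5e) and all 4 of the peripheral stalk (Atp5f1, Atp5h, Atp5j and Atp5o) were lower in both media. With DM the 4 stalk genes were all higher at both oxygen levels, but only 3 of the 5 head genes were: Atp5c1 (0.10 at 21% and -0.16 at 2% oxygen) and Atp5d (0.16 and 0.16) did not pass the test. Atp5b, the catalytic beta subunit and the most abundant gene of the set in normoxic DM, had 715 and 655 FPKM in normoxic GM, 279 and 293 in hypoxic GM, 1032 and 1060.2 in normoxic DM, and 488 and 535 in hypoxic DM. Its partner Atp5a1, the alpha subunit, had 301 and 285 FPKM in normoxic GM, 148 and 155 in hypoxic GM, 362 and 362 in normoxic DM, and 217 and 211 in hypoxic DM. Both had 4 separate groups in the same order, normoxic DM, normoxic GM, hypoxic DM and hypoxic GM. Hypoxia lowered Atp5b by -1.26 in GM and -1.03 in DM and Atp5a1 by -0.95 and -0.76 (limma, adjusted p from 9.51e-05 to 0.000208).

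The 3 genes for subunit c, the membrane ring that turns with proton flow, responded unequally although they are known to encode the same mature protein with different import sequences. Atp5g1 had 143 and 115 FPKM in normoxic GM, 48.3 and 53.0 in hypoxic GM, 402 and 393 in normoxic DM, and 106 and 124 in hypoxic DM. It was higher with DM at 21% oxygen by 1.63 ± 0.13 and lower with hypoxia in DM by -1.79 ± 0.13, the largest fall of the set there (SE; limma, adjusted p = 5.92e-05 and 3.8e-05), and its normoxic GM and hypoxic DM libraries overlapped. Atp5g3 had 463 and 438 FPKM in normoxic GM, 166 and 166 in hypoxic GM, 601 and 631 in normoxic DM, and 266 and 279.8 in hypoxic DM, with 4 separate groups. It fell by 1.43 with hypoxia in GM and by 1.17 in DM (limma, adjusted p = 6.24e-05 and 2.35e-05).

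Atp5g2, the most abundant of the 3 in GM, had 828 and 655 FPKM in normoxic GM, 543 and 572 in hypoxic GM, 536 and 507 in normoxic DM, and 422 and 424 in hypoxic DM. Normoxic GM was its highest group and hypoxic DM its lowest. It fell with DM by 0.50 at 21% oxygen and by 0.40 at 2% oxygen and with hypoxia in GM by 0.40 (limma, adjusted p = 0.01, 0.039 and 0.0371). None of these calls held in every alternative. The first was lost with median-of-ratios scaling (-0.22, limma adjusted p = 0.193) and without library B of normoxic DM (-0.46). The second was lost without the filter, with sample weights and with the replicate block (limma, adjusted p = 0.0628, 0.0948 and 0.0553). It was also lost in most fits that left out 1 library. The third was lost with median-of-ratios and upper-quartile scaling (-0.28 and -0.23, limma adjusted p = 0.147 and 0.218). It was also lost without library A of normoxic GM (-0.23) and in further alternatives. Summed over the 3 genes, subunit c transcripts stood at 1434 and 1207 FPKM in normoxic GM, 758 and 791 in hypoxic GM, 1540.0 and 1531 in normoxic DM, and 793 and 827 in hypoxic DM. Atp5g1 made up 9.99% and 9.50% of that sum in normoxic GM, 6.37% and 6.70% in hypoxic GM, 26.1% and 25.7% in normoxic DM, and 13.3% and 15.0% in hypoxic DM. Atp5g2 ran opposite, from 71.7% and 72.3% in hypoxic GM to 34.8% and 33.1% in normoxic DM.

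The promoters of the 3 subunit c genes are shown because their transcripts differed in response while the mature protein is shared. Each is the 250 bases before the start from the RefSeq table (GRCm38.p6): Atp5g1 at chr11:96075632-96075881, Atp5g2 at chr15:102671048-102671297 and Atp5g3 at chr2:73911327-73911576, all on the - strand. Capitals mark ACGTG or GCGTG (HIF core), GCGCA and GCGC with 1 base between them (NRF1) and CCGGAAG (ETS, bound by GABP) on either strand; CACGTG reads as ACGTG on both strands, so such pairs overlap.
Atp5g1: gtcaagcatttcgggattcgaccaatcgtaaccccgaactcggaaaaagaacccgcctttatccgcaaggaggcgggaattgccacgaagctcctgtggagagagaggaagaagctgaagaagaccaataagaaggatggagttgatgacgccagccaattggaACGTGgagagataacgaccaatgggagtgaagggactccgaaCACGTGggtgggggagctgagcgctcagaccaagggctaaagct
Atp5g2: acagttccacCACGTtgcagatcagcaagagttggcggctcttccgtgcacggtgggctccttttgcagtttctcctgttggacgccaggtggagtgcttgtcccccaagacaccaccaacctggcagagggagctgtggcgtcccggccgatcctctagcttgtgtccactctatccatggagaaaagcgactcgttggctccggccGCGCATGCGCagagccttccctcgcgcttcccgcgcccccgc
Atp5g3: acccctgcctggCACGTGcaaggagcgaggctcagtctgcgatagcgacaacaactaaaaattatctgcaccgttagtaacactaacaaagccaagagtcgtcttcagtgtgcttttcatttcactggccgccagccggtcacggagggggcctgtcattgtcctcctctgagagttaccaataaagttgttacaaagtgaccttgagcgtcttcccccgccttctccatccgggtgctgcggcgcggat
The NRF1 letters lie 42 to 33 bases before the start of Atp5g2 and were not found in the windows of Atp5g1 and Atp5g3. All 3 windows hold ACGTG, which lies 86 to 82 and 44 to 39 bases before the start of Atp5g1 and over 230 bases before those of the other two. Across the OXPHOS genes, 21.0% of 62 windows (56 genes matched) held the NRF1 letters against 3.74% of all 32851 windows, and 16.1% held the ETS letters against 6.91%.

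**Figure D4:**
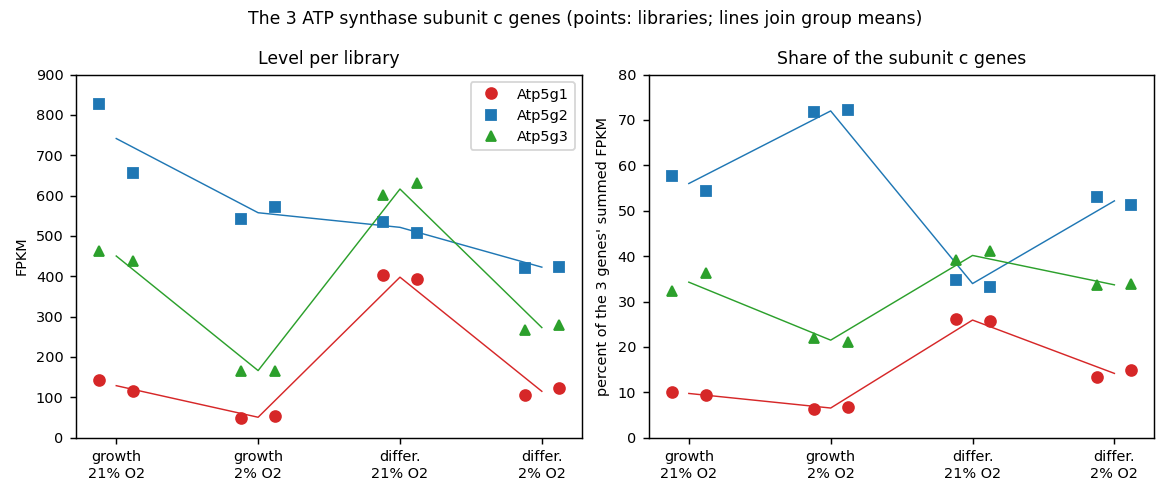
The 3 genes for ATP synthase subunit c: FPKM per library (left) and percent of their summed FPKM (right), with lines joining group means. Atp5g1 is highest in DM at 21% oxygen (402 and 393 FPKM) and Atp5g2 takes its largest share in GM at 2% oxygen.

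Atp5sl and Atp5s, the genes that are not subunits, were the lowest of complex V. Atp5sl had 13.1 and 9.81 FPKM in normoxic GM, 11.0 and 10.1 in hypoxic GM, 4.62 and 4.89 in normoxic DM, and 10.4 and 9.56 in hypoxic DM. Normoxic DM was its lowest group with no overlap. It fell by 1.10 ± 0.14 with DM at 21% oxygen and rose by 0.93 ± 0.14 with hypoxia in DM (SE; limma, adjusted p = 0.00051 and 0.00114). Atp5s had 5.04 and 4.90 FPKM in normoxic GM, 4.12 and 3.72 in hypoxic GM, 7.10 and 6.29 in normoxic DM, and 2.46 and 3.19 in hypoxic DM. It was lower with hypoxia in DM by -1.01 ± 0.13 (SE; limma, adjusted p = 0.000506), and its rise of 0.36 with DM at 21% oxygen (limma, adjusted p = 0.0418) was lost in 9 alternatives. Leaving both out, with the pair of Ndufa4 and Ndufa4l2, reduced the higher calls with hypoxia from 2 to 1 in GM and from 5 to 3 in DM.

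The difference between the media in the response to oxygen was called for 21 of 66 genes by limma, 14 with a positive interaction and 7 with a negative one, where 35.4% and 18.7% of all tested genes were called. The median interaction was 0.07 against 0.27 for all tested genes. This split depended on scaling: with median-of-ratios scaling 7 were positive and 21 negative, and with upper-quartile scaling 7 and 15, while all tested genes went from 65.5% of calls positive to 47.3% and 53.6%. Positive interactions were called for 9 genes of complex I, 2 of complex II, 2 of complex III and 1 of complex V. Between comparisons that share no library, the fitted changes of the 66 genes with hypoxia in GM and in DM had a Pearson r of 0.48 (Spearman rho 0.36), and those with DM at 21% and at 2% oxygen an r of 0.41 (rho 0.52). These describe 66 genes of the same libraries, which are not independent replicates, and without Ndufa4l2 and Ndufs5 r was 0.54 and 0.56.

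Related mitochondrial genes were compared by count and median. Of 3 subunits outside the rule, all were lower with hypoxia in both media: Cyc1, the electron-carrying cytochrome c1 of complex III, by -1.23 in GM and -1.34 in DM, and Ndufab1, the acyl carrier protein, by -0.51 and -0.38 (limma, adjusted p from 6.19e-05 to 0.023). With DM both rose, whereas Atpif1 fell at 21% and 2% oxygen (-0.54 and -0.36, limma adjusted p = 0.00273 and 0.0268). Of 15 tested complex IV genes, 11 were lower with hypoxia in GM and 10 in DM, with medians of -0.75 and -0.64. Of 14 tricarboxylic acid cycle genes, 14 and 13 were lower, with medians of -0.90 and -0.82. Assembly factors (12 and 12 of 23, medians -0.43 and -0.38) and mitochondrial ribosomal proteins (51 and 39 of 77, medians -0.43 and -0.29) had medians nearer 0. Of all tested genes, 28.0% were lower with hypoxia in GM and 27.7% in DM. In GM 2 complex IV genes were higher, and Cox6a2 had the highest change of that list (2.46). No assembly factor or mitochondrial ribosomal protein gene was higher there. In DM 3 assembly factors, 13 mitochondrial ribosomal protein genes and 1 complex IV gene were higher. In GM the counts of lower genes depended on scaling. With median-of-ratios scaling 7 assembly factors, 37 mitochondrial ribosomal protein genes and 2 of the 3 subunits outside the rule were lower, against 22.1% of all tested genes. With upper-quartile scaling 6, 31 and 2 were lower, against 19.8%. Cytosolic ribosomal protein genes had a positive median with hypoxia in GM, 0.44, with 34 of 80 higher, where 13.5% of all tested genes were. In DM their median of 0.15 was that of all tested genes, 0.15, with 18 of 80 higher, where 37.5% of all tested genes were, and with median-of-ratios scaling it was -0.05, with 1 higher and 9 lower.

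**Figure D5:**
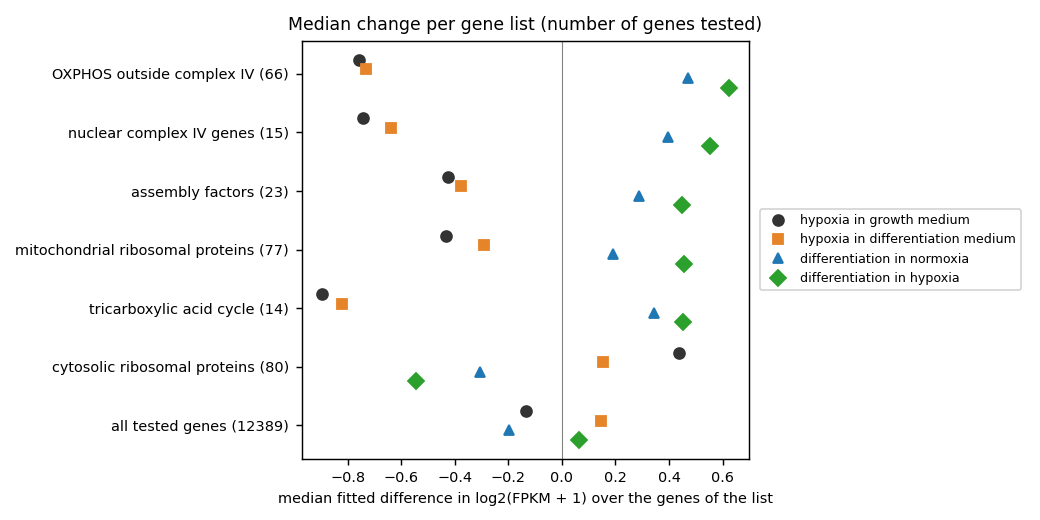
Median fitted difference in log2(FPKM + 1) (horizontal axis) over the genes of each list (number tested in brackets) in the 4 comparisons. The 5 mitochondrial lists have negative medians for both hypoxia comparisons and positive ones for both differentiation comparisons, and the cytosolic ribosomal proteins have the opposite signs, except that with median-of-ratios scaling their median for hypoxia in DM is -0.05.

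None of 8 tested regulators of mitochondrial genes passed the test in all 4 comparisons of media and oxygen. With hypoxia 1 was higher and 1 lower in GM, and 1 was higher and 3 lower in DM. The highest change in each medium was that of Yy1 (0.56 in GM and 0.318 in DM). In normoxia 4 were higher and 1 lower in DM than in GM, and the lowest change was that of Esrra (-0.547). With median-of-ratios or upper-quartile scaling none was higher with hypoxia in DM, and none was lower in normoxic DM than in normoxic GM. Ppargc1b, a coactivator of the PGC-1 family, had 1.65 and 2.29 FPKM in normoxic GM, 0.644 and 0.579 in hypoxic GM, 3.95 and 3.36 in normoxic DM, and 0.561 and 0.532 in hypoxic DM. It was lower with hypoxia in both media (-0.87 and -1.59, limma adjusted p = 0.00258 and 6.81e-05), and its level in hypoxic DM was not above that in hypoxic GM. Tfam, the mitochondrial transcription factor, had 7.97 and 8.74, 6.86 and 7.08, 15.0 and 16.2, and 7.20 and 6.52 FPKM in the same order, with a fall of 1.08 with hypoxia in DM (limma, adjusted p = 0.000107). None of the 8 regulators passed the test for DM at 2% oxygen, where 54 of the 66 OXPHOS genes were higher. Of all tested genes, 23.3% were higher there and 17.6% lower, and the part of the regulators was not tested. Of the 9 regulators listed, Ppargc1a did not pass the filter. It had 0.0891 and 0.0841 FPKM in normoxic GM, 0.0154 and 0.0082 in hypoxic GM, 0.816 and 0.578 in normoxic DM, and 0.0275 and 0.0761 in hypoxic DM. Nrf1, whose motif is given above, had between 8.40 and 10.3 FPKM in all 8 libraries and passed no test. Of the HIF-linked mitochondrial genes, 6 were tested, Ndufa4l2 among them, and Cox4i2 did not pass the filter, with at most 0.394 FPKM in any library. The 6 were all higher with hypoxia in both media, where 13.5% of all tested genes were in GM and 37.5% in DM. With median-of-ratios scaling 5 of 6 were higher in DM. Pdk1, which limits pyruvate entry into mitochondria, rose by 2.14 in GM and 2.23 in DM, and Bnip3, a mitophagy receptor, by 3.17 and 2.14 (limma, adjusted p from 1.1e-05 to 7.79e-05).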

How the data were processed

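RNA libraries of C2C12 cells (2 per group, 8 in all) were compared; 16 chromatin and input samples of the series were not analysed here. The table holds gene-level FPKM values made by the authors with STAR 2.5.1b and Cufflinks 2.2.1 on mm9, per the submitters' processing notes; the annotation, settings, and treatment of strand and of reads that map to several places are not given in the sources used here, so reads shared with processed pseudogenes or with an overlapping gene (23 of the 66 genes) may be counted for either. The deposited FPKM values carry no counts, so the absolute depth is unknown.

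Genes with a mean of at least 1 FPKM in 1 or more groups (12389) were transformed to log2(FPKM + 1) and fitted with limma 3.58.1 (R 4.3.3, trend) over all 8 libraries as 4 group means, with 5 contrasts, 2-sided tests, Benjamini-Hochberg adjustment over all tested genes and a threshold of 0.05. The residual degrees of freedom were 4. Fold changes on this scale understate those of low genes, and the number of libraries limits the precision. The fitting code was also run on simulated data with independent noise and few changed genes, which is no test of the calls made here. Relative depth came from the most frequent ratio of equal small steps between libraries, and fragments of Ndufa4l2 from that depth.

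The genes and lists were chosen with earlier results of these data known. Named genes were the 3 largest rises and 3 largest falls that passed in each contrast, plus 12 fixed genes (Ndufa4l2, Ndufa4, Ndufs1, Sdha, Sdhb, Uqcrfs1, Uqcrc1, Atp5a1, Atp5b and the 3 Atp5g genes); other names, and the grouping by role, were chosen after values were seen. The gene-level values of 1 gene are not reported here. Replicate letters were not used as pairs in the main fit. The correlation of A minus B between groups ran from -0.166 to 0.042, which cannot show whether libraries of 1 letter were handled together. Promoter windows came from RefSeq (GRCm38.p6), whose coordinates were not joined to mm9. Alternatives were a pseudocount of 0.1, no filter, median-of-ratios and upper-quartile scaling, sample weights, robust moderation, a replicate block, leaving out each library, fitting only the libraries compared, and leaving out the 4 genes that are not subunits of these complexes.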

Additional observations from a re-analysis of the deposited data

Results flagged for a closer look

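The response to hypoxia differed between the media, by limma's test of the interaction of medium and oxygen, for 12 of the 23 named genes. Of all tested genes, 35.4% were called with a positive interaction and 18.7% with a negative one. Some of the named genes were chosen by their rank in this same contrast, so the count says nothing about the OXPHOS genes as a set. The interaction is the log2 change with hypoxia in differentiation medium minus that in growth medium. It was positive for Ndufa8 (1.298), Ndufa4 (1.196), Ndufb10 (1.114), Atp5sl (1.023), Ndufa1 (0.839), Uqcrc1 (0.8), Ndufv3 (0.538) and Sdha (0.326). It was negative for Ndufa6 (-0.84), Uqcrq (-0.738), Atp5s (-0.734) and Ndufs4 (-0.61). Ndufa8 and Ndufb10 fell with hypoxia in growth medium and rose with it in differentiation medium, Ndufv3 rose in both, and Ndufa4, Uqcrc1, Uqcrq, Sdha and Ndufs4 fell in both by unequal amounts. With median-of-ratios scaling the interaction of Sdha was 0.01 (limma, adjusted p = 0.979) and that of Ndufv3 0.21 (limma, adjusted p = 0.371). Those of Atp5s (limma, adjusted p up to 0.0616), Ndufa1 (up to 0.0519) and Ndufa6 (up to 0.0725) were lost when single libraries were left out. Groups of 2 libraries are too small for a test of an outlying value within a group.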

How the results depend on the processing

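Of 115 fitted changes of the named genes (23 genes in 5 contrasts), 93 passed the threshold, and 68 of these passed under every alternative run; none that passed reversed. The counts of genes lower with hypoxia and higher with differentiation medium stayed within 1.5 times of the reported values in each alternative run; when leaving out a library they ran from 50 to 60 lower with hypoxia in growth medium, 46 to 54 in differentiation medium, 37 to 50 higher with differentiation in normoxia and 39 to 53 in hypoxia. The small counts moved more. Genes lower with differentiation in normoxia numbered 2 with median-of-ratios scaling, 3 with upper-quartile scaling and 2 to 7 when leaving out a library. Those lower with differentiation in hypoxia numbered 0 without the filter, 0 with sample weights, 0 with the replicate block, 1 with only the libraries compared, and 0 to 3 when leaving out a library. Leaving out genes that are not subunits gave 1 gene higher with hypoxia in growth medium and 3 in differentiation medium; leaving out a library gave 1 to 2 for the first. The interaction had 7 positive and 21 negative calls with median-of-ratios scaling, 7 and 15 with upper-quartile scaling, and 6 to 17 and 4 to 8 when leaving out a library. Apart from fewer genes or samples, the cause was not tested.

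With the replicate block, 57 genes were lower and 2 higher with hypoxia in growth medium, 48 and 5 in differentiation medium, 47 were higher and 5 lower with differentiation in normoxia and 52 and 0 in hypoxia, and the interaction had 12 positive and 6 negative calls. Whether the letters pair samples is not given in the sources used here, so this fit is only a check.

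Some changes that had not passed the threshold took the other sign. With median-of-ratios scaling these were Uqcrc1 with differentiation in normoxia (0.072), Atp5sl with hypoxia in growth medium (0.015) and the interactions of Atp5a1 (-0.135), Atp5b (-0.101), Atp5g2 (-0.226), Atp5g3 (-0.067), Ndufs8 (-0.125) and Sdhb (-0.105). With upper-quartile scaling they were Atp5sl (0.065) and the interactions of Atp5a1 (-0.036), Atp5b (-0.003), Atp5g2 (-0.127), Ndufs8 (-0.026) and Sdhb (-0.006). When leaving out a library, Ndufa4 with differentiation in normoxia ran from -0.09 to 0.099, Atp5sl with hypoxia in growth medium from -0.283 to 0.097, and the interactions of Atp5g2 from -0.069 to 0.268 and of Ndufa4l2 from -0.787 to 0.673.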
